A study of Mus musculus with 24 samples.

Results

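The cell proliferation genes were 39 genes of DNA replication and mitosis, chosen by name, among 33000 genes in the count table; all 39 were found by their symbol. A cell that divides starts in G1, where D- and E-type cyclins release the E2F transcription factors and MCM rings are loaded on DNA. In S phase the MCM helicase opens the DNA and PCNA clamps the polymerases to it. In mitosis CDK1 with cyclin B, the Aurora and Polo kinases and the kinesins build and divide the spindle. Most of the mitotic genes are silent in cells that have left the cycle and are repressed there by the DREAM complex, so their RNA is widely used as a mark of dividing cells. Neurons of the adult cortex do not divide, whereas oligodendrocyte precursors, microglia, endothelial cells and reactive astrocytes can.

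Frontal cortex was taken at 3 months of age from 3 wild-type C57BL/6 mice (WT) and from 3 mice homozygous for GFAP-IL6, with no other treatment given in the labels. In GFAP-IL6 mice a transgene places the cytokine interleukin-6 under the astrocyte Gfap promoter, and a single age was sampled. Each mouse gave 4 3'Pool-seq libraries, in which reads come from the 3' end of polyadenylated RNA: 1 with 2 ng and 1 with 1 ng of cDNA in the tagmentation reaction (the step that cuts the cDNA and adds adapters), in set A and again in set B. The 4 libraries of a mouse share its RNA, so they were summed and the mouse was the replicate. Values are given as CPM, the share of the counts on genes in that mouse or library scaled to 1000000, with no division by gene length because each transcript is read at its end.

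The 24 libraries held 1524165 to 12256374 counts, and the 6 mice 7852743 to 37582644. The genotype labels were checked on the transgene: Il6 had 5, 3 and 0 counts in the WT mice and 30, 33 and 163 in the GFAP-IL6 mice, and Gfap rose by 2.44 on the log2 scale (SE 0.18, edgeR adjusted p = 1.59e-06). WT mouse 3 had the fewest counts and stood apart in 4 choroid plexus markers, which summed to 3943 CPM there and to 78.9 to 744 CPM in the other mice, so results are also given without it.

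The promoters of 5 members are shown first, because the letters through which cell-cycle factors bind are what many members share. RefSeq promoters on GRCm38.p6, from 250 bases before to 50 bases after the start, were at hand for 32 of the 39 members. The words searched on both strands were CCAAT, the NF-Y box; TTTGAA and TTCGAA, the cell cycle genes homology region (CHR) through which DREAM binds; and TTTCGCGC, TTTGGCGC and TTCCCGCC, forms of the E2F site. Capitals mark these words, read as their reverse complement where they lie on the other strand; each window is written 5′ to 3′ along its gene.
Ccnb2 (chr9:70421505-70421804, minus strand): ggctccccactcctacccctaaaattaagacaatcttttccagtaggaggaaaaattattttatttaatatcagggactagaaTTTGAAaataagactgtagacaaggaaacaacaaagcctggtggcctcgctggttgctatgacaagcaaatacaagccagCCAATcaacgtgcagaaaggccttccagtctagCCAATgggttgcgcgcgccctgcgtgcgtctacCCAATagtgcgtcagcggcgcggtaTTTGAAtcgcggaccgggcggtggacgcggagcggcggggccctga
Cdk1 (chr10:69352863-69353162, minus strand): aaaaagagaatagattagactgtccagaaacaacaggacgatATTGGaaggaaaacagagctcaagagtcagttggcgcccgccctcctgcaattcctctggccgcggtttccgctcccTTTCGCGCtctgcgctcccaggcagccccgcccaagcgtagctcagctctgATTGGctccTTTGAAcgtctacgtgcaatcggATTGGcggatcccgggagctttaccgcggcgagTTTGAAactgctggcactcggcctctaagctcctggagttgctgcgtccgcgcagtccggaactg
Mki67 (chr7:135716330-135716629, minus strand): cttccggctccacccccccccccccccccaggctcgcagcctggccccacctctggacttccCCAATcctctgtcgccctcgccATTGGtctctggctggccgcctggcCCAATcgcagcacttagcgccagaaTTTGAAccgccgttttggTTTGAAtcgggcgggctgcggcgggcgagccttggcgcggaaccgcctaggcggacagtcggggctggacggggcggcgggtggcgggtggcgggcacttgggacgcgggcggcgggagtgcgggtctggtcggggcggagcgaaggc
Mcm6 (chr1:128359656-128359955, minus strand): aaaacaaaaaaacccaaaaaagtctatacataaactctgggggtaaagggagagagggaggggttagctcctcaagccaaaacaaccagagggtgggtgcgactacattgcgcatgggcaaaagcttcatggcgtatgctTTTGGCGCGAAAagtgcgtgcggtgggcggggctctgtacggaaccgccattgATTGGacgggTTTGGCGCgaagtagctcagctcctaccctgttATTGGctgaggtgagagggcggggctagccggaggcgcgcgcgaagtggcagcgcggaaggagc
Pcna (chr2:132253131-132253430, minus strand): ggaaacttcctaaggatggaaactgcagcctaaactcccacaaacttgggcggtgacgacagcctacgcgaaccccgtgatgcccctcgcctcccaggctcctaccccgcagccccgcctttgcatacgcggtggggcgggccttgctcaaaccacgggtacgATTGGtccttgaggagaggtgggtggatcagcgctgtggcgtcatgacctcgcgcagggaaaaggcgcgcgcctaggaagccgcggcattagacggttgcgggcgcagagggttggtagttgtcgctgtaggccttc

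Ccnb2, which encodes cyclin B2, carried CCAAT at positions -87, -54 and -21 from its start and TTTGAA at -167 and 4, and Cdk1 and Mki67 also held several of both words. Mcm6 held E2F words and no CHR word; its first run of capitals is TTTGGCGC overlapping TTTCGCGC on the other strand. Pcna held a single CCAAT, on the other strand. Over the members, 26 of 32 held CCAAT (81.2%), against 42.3% of 17492 protein-coding genes with a promoter of the same length. A CHR word was found in 17 of 32 (53.1% against 20.2%), and each of these 17 also held CCAAT (53.1% against 8.22% of protein-coding genes with both). An E2F word was found in 7 of 32 (21.9% against 4.41%), namely Cdk1, Mcm3, Mcm5, Mcm6, Mcm7, Rrm1 and Uhrf1. TATAAA was found in 0 of 32, against 14.8%. The 17 with both CCAAT and CHR were mostly mitotic genes, with Mcm2 and Mcm7 as the replication genes among them. A match describes these letters and was not tested as a binding site.

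The members were rare in this tissue and were carried by a few genes. Together they took 21987 of 112945479 counts (0.0195%), and Ccnd1 alone held 35.3% of these. With Pcna, Ccne1, Rrm1 and Mcm7 the share was 71.0%. By mean CPM, 4 members were at 10 CPM or more, 18 were under 1 CPM and 10 were under 0.5 CPM; the 18 together held 5.37% of the member counts. The highest member, Ccnd1, was 492-fold above the lowest, Bub1, which had 17 counts in all 24 libraries together. Of the 39 members, 14 had fewer than 100 counts over all libraries.

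**Figure D1:**
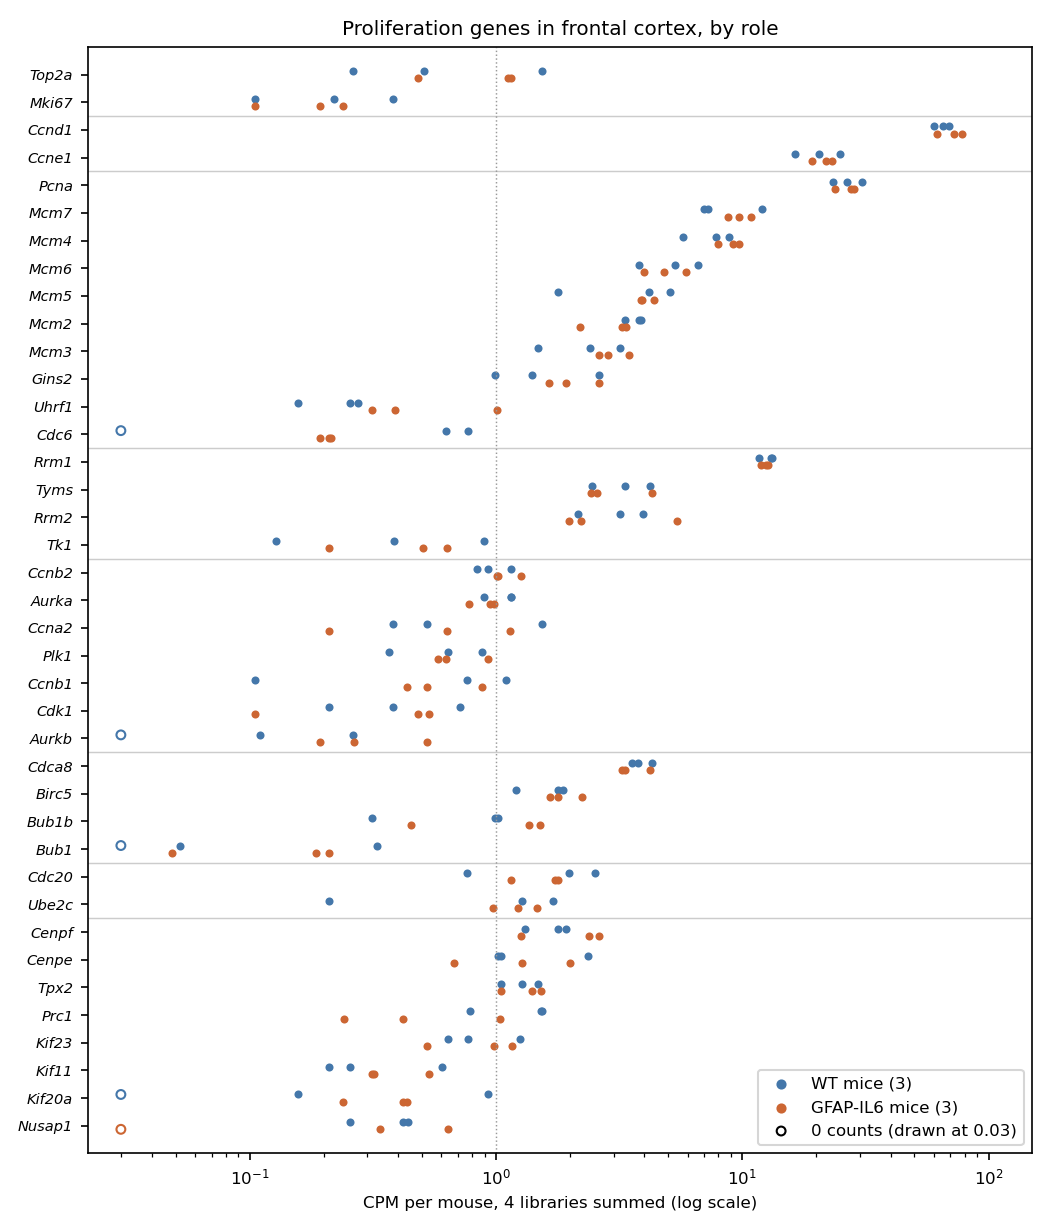
CPM of each of the 39 members in each mouse (log axis), grouped by role; filled points are WT mice (blue) and GFAP-IL6 mice (orange), 3 each, and open points, drawn at 0.03, are mice with 0 counts. Ccnd1, Pcna, Ccne1 and Rrm1 lie above 10 CPM, and the points of both genotypes overlap for every member but Uhrf1.

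Detection followed the depth of the library. The number of members with at least 1 count ran from 26 to 39 per library, with a median of 34, and the number with more than 3 counts from 13 to 35. Only 16 members had a count in every library, while 34 had a count in every mouse. The other 5 were at 0 in a single mouse: Nusap1 in GFAP-IL6 mouse 1, and Kif20a, Cdc6, Aurkb and Bub1 in WT mouse 3. A count of 0 allows up to 0.382 CPM in WT mouse 3 and 0.315 CPM in GFAP-IL6 mouse 1 (3 counts per mouse). Such limits cover counting error only, since reads were not collapsed to molecules.

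**Figure D2:**
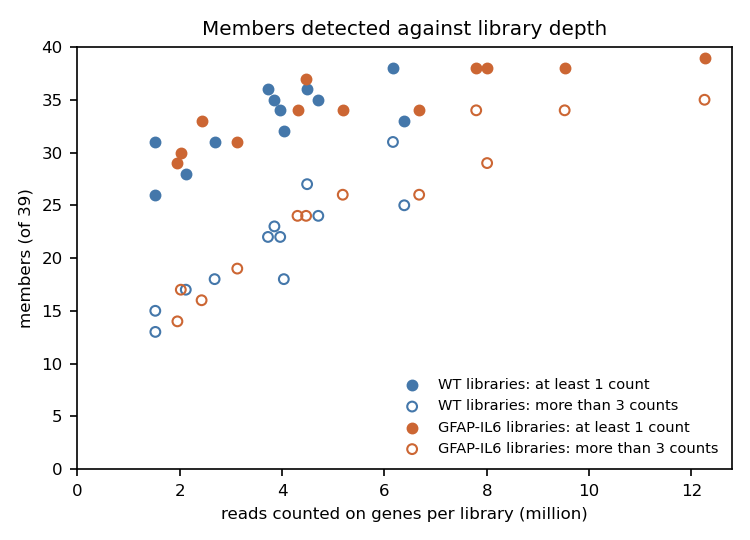
Members with at least 1 count (filled) and with more than 3 counts (open) against the reads counted on genes in each of the 24 libraries (units of 1000000), WT in blue and GFAP-IL6 in orange. The shallowest libraries detected 26 to 31 members and the deepest 39.

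The summed level of the module did not separate the genotypes. The 39 members summed to 188, 199 and 177 CPM in the WT mice (188 ± 10.99, SD, n = 3) and to 201, 187 and 203 CPM in the GFAP-IL6 mice (197 ± 8.76, SD, n = 3). The ratio of the means was 1.05 (0.067 on the log2 scale), and the groups overlapped, with GFAP-IL6 mouse 2 below both WT mouse 1 and WT mouse 2. Leaving out 1 mouse at a time gave log2 ratios from 0.025 to 0.11, with 0.025 without WT mouse 3, and the ratio was 0.034 without Ccnd1. Among the 18 members under 1 CPM the sums were 7.85, 14.3 and 8.02 CPM in WT mice (10.04 ± 3.65) and 8.18, 9.25 and 11.7 CPM in GFAP-IL6 mice (9.71 ± 1.79). WT mouse 2 had the highest level of these rare genes. In bulk tissue a change in the number of dividing cells and a change in RNA per cell cannot be told apart.

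Microglia markers moved with genotype beside this. The 7 microglia markers summed to 238, 257 and 235 CPM in WT mice (243 ± 12.2) and to 348, 386 and 468 CPM in GFAP-IL6 mice (400.5 ± 61.6), a ratio of 1.65. Of the 7, edgeR called 6 higher at an adjusted p under 0.05, where 1.8% of all 14621 genes tested were called. The marker lists were chosen with earlier results of these data known. The 6 were led by Aif1, Itgam, Fcrls and Cx3cr1, and Itgam rose by 1.6 on the log2 scale (SE 0.18, edgeR adjusted p = 7.47e-05). P2ry12, a homeostatic receptor, was at 55.2 ± 2.21 CPM in WT and 55.7 ± 4.49 CPM in GFAP-IL6 mice. The 5 endothelial markers summed to 30.5 ± 3.598 CPM in WT and 49.4 ± 6.95 CPM in GFAP-IL6 mice. The ratio was 1.62 and the groups did not overlap. All 5 were fitted higher, 3 were at an unadjusted p under 0.05, and edgeR called 1. The called gene was Flt1, a VEGF receptor (0.70, SE 0.13, adjusted p = 0.00637). The 6 astrocyte markers summed to 1239 to 1303 CPM in WT and 1373 to 1551 CPM in GFAP-IL6 mice, with 0 of 6 called by edgeR and 2 at an unadjusted p under 0.05. The 6 oligodendrocyte precursor markers (196 ± 32.9 and 195 ± 43.5 CPM), the 9 of the subventricular zone and neuroblasts (54.9 ± 3.62 and 51.2 ± 2.39), and the 7 of T and B cells (1.72 ± 1.54 and 1.97 ± 0.6001) overlapped between genotypes. The 6 markers of neutrophils and monocytes summed to 3.42 ± 1.82 CPM in WT and 5.91 ± 3.21 CPM in GFAP-IL6 mice, a ratio of 1.73 with overlap of the groups; 4 were tested, all 4 were fitted higher, and edgeR called 0, with 0 at an unadjusted p under 0.05. Their part in the level of the members was not tested.

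**Figure D3:**
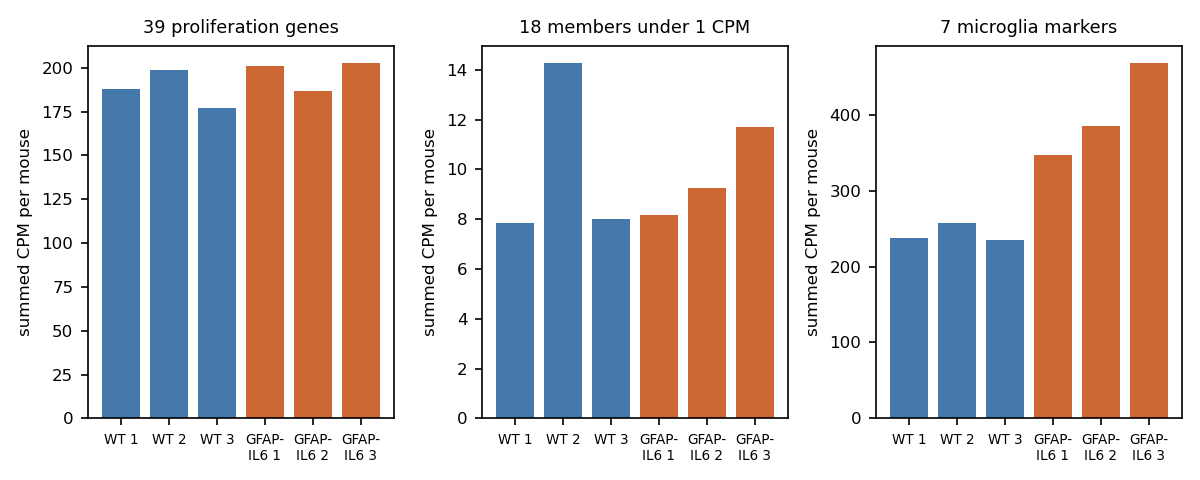
Summed CPM per mouse of the 39 proliferation genes, of the 18 members with a mean under 1 CPM, and of 7 microglia markers; bars are single mice, WT in blue and GFAP-IL6 in orange, from 0. The members ran from 177 to 203 CPM with overlap of the genotypes, and the microglia markers from 235 to 257 CPM in WT and from 348 to 468 CPM in GFAP-IL6 mice.

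In the comparison of single members, 29 of the 39 had enough counts to enter the test among 14621 genes, and edgeR called 0 of them at an adjusted p under 0.05, where 1.8% of all genes tested were called. At an unadjusted p under 0.05 there were 0 members also. By the DEG cutoffs in the main text of the study, which add an absolute log2 fold change above 1, 1.23% of genes and 0 members passed. A supplementary figure of the study used other cutoffs for 3'Pool-seq, which were not applied here. DESeq2 gave an adjusted p to 36 members and called 0 (1.8% of all genes), with 0 at an unadjusted p under 0.05 and a lowest adjusted p of 0.858. The fitted level was higher in GFAP-IL6 mice for 16 members and lower for 13, with a median log2 fold change of 0.0046, beside -0.0069 over all genes tested. The 10 members left out for low counts were Mki67, Cdc6, Uhrf1, Tk1, Cdk1, Aurkb, Bub1, Kif11, Kif20a and Nusap1. The 95% interval of the fold change lay within -1 to 1 on the log2 scale for 16 of the 29 and within -0.5 to 0.5 for 4 of them (Ccnd1, Pcna, Ccne1 and Rrm1). For the other tested members the interval reached 1 log2 unit in at least 1 direction.

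**Figure D4:**
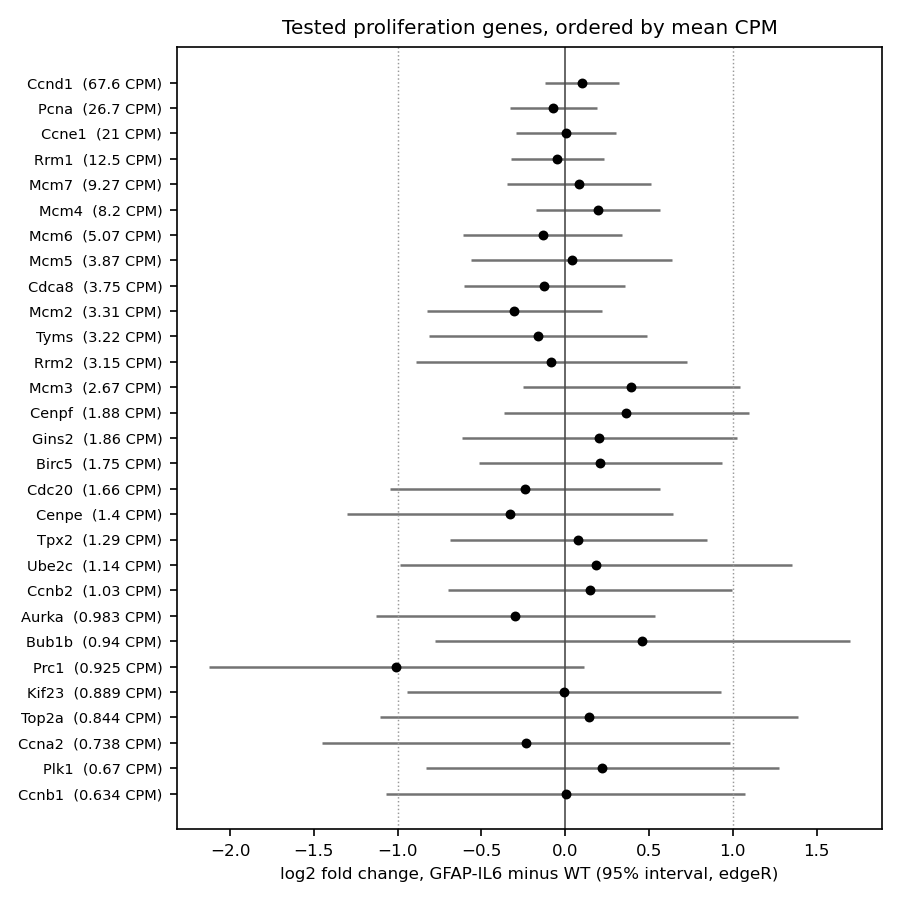
Log2 fold change, GFAP-IL6 minus WT, of the 29 tested members with 95% intervals from edgeR on 3 against 3 mice, ordered by mean CPM (in brackets); dotted lines mark -1 and 1. Every interval includes 0, and intervals widen from Ccnd1 (-0.12 to 0.32) at the top to members under 1 CPM at the bottom.

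The G1 cyclins included the highest member of the module. Ccnd1, cyclin D1, which partners CDK4 and CDK6 in G1, stood at 59.7, 65.3 and 69.0 CPM in WT mice and 72.4, 61.4 and 78.0 CPM in GFAP-IL6 mice. The groups overlapped through GFAP-IL6 mouse 2, and the log2 fold change was 0.10 (SE 0.10, edgeR adjusted p = 0.880), an interval of 0.918- to 1.25-fold. In all 4 sets taken alone the fitted value was above 0, from 0.079 to 0.17, over the same mice. The last exon of Ccnd1 is overlapped on the opposite strand by LTO1, with 1824 counts of its own, and the strand setting of the counting is not given in the sources used here. Ccne1, cyclin E1, which activates CDK2 at the start of S phase, was at 24.9, 20.4 and 16.3 CPM in WT and 21.8, 23.2 and 19.2 CPM in GFAP-IL6 mice, with the GFAP-IL6 values inside the WT range (log2 fold change 0.0046, SE 0.14). Its fitted sign turned under other settings.

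The genes of replication licensing and of the fork, 10 in number, summed to 60.5 ± 8.75 CPM in WT and 63.0 ± 0.984 CPM in GFAP-IL6 mice, 5 of 8 tested members being fitted higher. Pcna, the sliding clamp of the DNA polymerases, was at 30.7, 26.7 and 23.4 CPM in WT and 28.3, 27.5 and 23.8 CPM in GFAP-IL6 mice, so that the groups covered nearly the same range (log2 fold change -0.07, SE 0.12, interval 0.797- to 1.14-fold). A near-identical copy of Pcna, Pcna-ps2, had 30 counts of its own. WT mouse 3 was lowest in the sum and in several of the MCM genes.

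Mcm2 to Mcm7 encode the ring of the replicative helicase, and its subunits did not move in one direction. Mcm7 was at 7.23, 12.1 and 7.004 CPM in WT and 10.8, 9.74 and 8.78 CPM in GFAP-IL6 mice. Mcm4 was at 7.85, 8.83 and 5.73 CPM in WT and 9.12, 7.99 and 9.66 CPM in GFAP-IL6 mice. For both genes a WT mouse lay among or above the GFAP-IL6 mice, and the log2 fold changes were 0.084 (SE 0.20) and 0.20 (SE 0.17). Mcm6 was at 6.60, 5.32 and 3.82 CPM in WT and 3.99, 4.80 and 5.91 CPM in GFAP-IL6 mice. Mcm5 was at 4.19, 5.10 and 1.78 CPM in WT, where WT mouse 3 had 14 counts, and 3.88, 3.92 and 4.36 CPM in GFAP-IL6 mice. These 2 genes gave -0.13 (SE 0.22) and 0.039 (SE 0.28).

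Mcm2 and Mcm3 were fitted in opposite directions. Mcm2 was at 3.88, 3.35 and 3.82 CPM in WT and 2.20, 3.25 and 3.38 CPM in GFAP-IL6 mice, a log2 fold change of -0.30 (SE 0.25, edgeR adjusted p = 0.827). Mcm3 was at 2.41, 1.48 and 3.18 CPM in WT and 2.62, 2.86 and 3.46 CPM in GFAP-IL6 mice, a log2 fold change of 0.39 (SE 0.30, adjusted p = 0.814). GFAP-IL6 mouse 1 was the lowest for Mcm2, and WT mouse 2 for Mcm3, and neither gene separated the groups. The last exon of Mcm7 lies opposite Cops6, a gene with 32502 counts, and a near-identical copy of Mcm7, Gm5487, is in the genome. The study counted uniquely aligned reads, so reads that match Mcm7 and its copy equally would be left out. The effect of Cops6 or of the copy on the counts of Mcm7 was not tested.

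The remaining genes of this role were low. Gins2, a subunit of the GINS complex of the moving helicase, had 11 to 72 counts per mouse (0.20, SE 0.39). Cdc6, which loads MCM rings, had 0 to 14 counts per mouse and was not tested. Uhrf1, which brings the maintenance methyltransferase to newly copied DNA, had 3, 5 and 2 counts in WT and 3, 8 and 38 counts in GFAP-IL6 mice. In CPM these were 0.157, 0.274 and 0.255 against 0.315, 0.388 and 1.01. Uhrf1, singled out after its values were seen, was the only 1 of 39 members whose groups did not overlap, and it was not tested. Every tested member overlapped, where 13.8% of all genes tested did not. GFAP-IL6 mouse 3, also the deepest, held 38 of the 59 counts of Uhrf1. With the count filter removed edgeR gave Uhrf1 a log2 fold change of 1.42 (SE 0.74, adjusted p = 0.610). A near-identical copy of Uhrf1, Gm5648, is in the genome.

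Enzymes of deoxynucleotide synthesis summed to 19.5 ± 1.12 CPM in WT and 19.2 ± 2.38 CPM in GFAP-IL6 mice. Rrm1, the large subunit of ribonucleotide reductase, varied little, at 13.0, 11.7 and 13.2 CPM in WT and 11.96, 12.5 and 12.8 CPM in GFAP-IL6 mice (-0.048, SE 0.13). Rrm2, the small subunit that is limiting in S phase, was at 2.15, 3.95 and 3.18 CPM in WT and 5.45, 1.99 and 2.21 CPM in GFAP-IL6 mice, so that GFAP-IL6 mouse 1 was the highest of all and the other two GFAP-IL6 mice were near the low end. For Rrm2 the mean CPM was higher in GFAP-IL6 mice (3.22 against 3.09) while the fitted value was -0.082 (SE 0.38). A near-identical copy of Rrm2, Gm48445, is in the genome. Tyms, thymidylate synthase, was at 2.46, 3.35 and 4.20 CPM in WT and 4.30, 2.57 and 2.42 CPM in GFAP-IL6 mice (-0.16, SE 0.31). Tk1, the S-phase thymidine kinase, had 1 to 19 counts per mouse and was not tested.

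Of the markers used to stain dividing cells, Mki67, which coats mitotic chromosomes, had 23 counts in all: 2, 4 and 3 in WT and 1, 4 and 9 in GFAP-IL6 mice. This was 0.235 ± 0.139 CPM in WT and 0.179 ± 0.0684 CPM in GFAP-IL6 mice (SD, n = 3), and 10 of the 24 libraries had none. Top2a, the topoisomerase that untangles sister chromatids, had 5, 28 and 4 counts in WT and 11, 10 and 42 in GFAP-IL6 mice, or 0.262, 1.54 and 0.509 CPM against 1.15, 0.484 and 1.12 CPM. WT mouse 2 was the highest and WT mouse 1 the lowest for Top2a, and the log2 fold change was 0.14 with an interval from -1.11 to 1.39. A change of 1 log2 unit in either direction lay inside the interval of Top2a, and Mki67 had too few counts for the test.

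The cyclins and kinases of mitosis, 7 genes, summed to 4.69 ± 1.54 CPM in WT and 4.69 ± 0.919 CPM in GFAP-IL6 mice. Cdk1, the kinase that drives entry into mitosis, had 4, 13 and 3 counts in WT and 1, 10 and 20 in GFAP-IL6 mice, or 0.209, 0.713 and 0.382 CPM against 0.105, 0.484 and 0.532 CPM, and was not tested. Its cyclins Ccnb1, Ccnb2 and Ccna2, and the kinases Plk1 and Aurka, which mature the spindle poles, had mean levels from 0.634 to 1.03 CPM. Their log2 fold changes ran from -0.30 for Aurka to 0.22 for Plk1, 3 higher and 2 lower, and their groups overlapped. Aurkb, the kinase of the chromosomal passenger complex, had 0 to 10 counts per mouse. The last exon of Ccna2 lies opposite Exosc9, which had 6543 counts, and Ccnb1 has the near-identical copies Ccnb1-ps and Gm8416.

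Cdca8, Birc5, Bub1 and Bub1b serve the passenger complex and the spindle checkpoint, and summed to 6.40 ± 0.551 and 6.75 ± 0.325 CPM. Cdca8, or borealin, was the highest mitotic member, at 4.29, 3.78 and 3.57 CPM in WT and 3.25, 3.34 and 4.23 CPM in GFAP-IL6 mice (-0.12, SE 0.23). Birc5, or survivin, had 14 to 62 counts per mouse (0.21, SE 0.34) and Bub1b, the checkpoint protein BubR1, 6 to 31 (0.46, SE 0.58). Bub1, the checkpoint kinase, had 0 to 7. Cdc20, which activates the anaphase-promoting complex, and Ube2c, its ubiquitin-conjugating enzyme, summed to 2.81 ± 0.822 and 2.78 ± 0.201 CPM, with log2 fold changes of -0.24 (SE 0.38) and 0.19 (SE 0.55). Both have a counted gene opposite their last exon, Elovl1 for Cdc20 and Tnnc2 for Ube2c.

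The 8 genes of the spindle, its kinesins and the kinetochore summed to 7.67 ± 2.06 CPM in WT and 7.27 ± 1.22 CPM in GFAP-IL6 mice. Cenpf, a kinetochore protein, was at 1.31, 1.92 and 1.78 CPM in WT and 1.26, 2.62 and 2.39 CPM in GFAP-IL6 mice (0.36, SE 0.34, edgeR adjusted p = 0.859). GFAP-IL6 mouse 1 was the lowest of all for Cenpf and the other two GFAP-IL6 mice the highest. Prc1, which bundles the microtubules of the central spindle, had the lowest p of all members. It had 15, 28 and 12 counts in WT and 4, 5 and 39 counts in GFAP-IL6 mice, or 0.785, 1.54 and 1.53 CPM against 0.419, 0.242 and 1.04 CPM. GFAP-IL6 mouse 3 lay inside the WT range, and the fitted log2 fold change of -1.01 (SE 0.52) had an unadjusted p of 0.0741 and an edgeR adjusted p of 0.642. Rccd1, with 300 counts, lies opposite the last exon of Prc1. Cenpe, a kinetochore kinesin, Tpx2, a spindle assembly factor, and Kif23, a kinesin of the central spindle, had 5 to 57 counts per mouse and log2 fold changes of -0.33, 0.077 and -0.0076. Kif11, Kif20a and Nusap1, which build and bundle spindle microtubules, had 0 to 24 counts per mouse and were not tested.

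The genotypes were also compared in each set of 6 libraries, which repeats the contrast over the same mice at the depth of single libraries. The test could be run for 14 members in each of the sets but 1 ng set B, where 17 entered. edgeR called 0 members in each, where 1.03% of all genes tested were called with 2 ng and 1.1% with 1 ng in set A, and 1.08% with either amount in set B, and at an unadjusted p under 0.05 a single member was found. It was Cenpf in 1 ng set B (1.23, SE 0.57, adjusted p = 0.702), which stood at -0.21 (SE 0.47) in 1 ng set A. Mcm2, Pcna and Tyms were fitted below 0 in all 4 sets and Ccnd1 above 0, with Mcm2 from -0.67 to -0.014.

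Other genes of the cell cycle were taken as 5 lists of 102 genes, of which 83 were tested and 1 was called, where 1.8% of all genes tested were, with a median log2 fold change of 0.019 and 44 fitted higher against 39 lower. Among 8 CDK inhibitors 0 of 7 tested were called, among 9 other cyclins and CDKs 0 of 9, among 19 regulators of E2F, RB and DREAM 0 of 13, and among 33 other replication genes 0 of 31. The counts at an unadjusted p under 0.05 were 1, 0, 0 and 0. Among 33 other mitosis genes 1 of 23 rose, and 2 were at an unadjusted p under 0.05. A single call among 83 is near that background share. It was Kif2c, a kinesin that takes microtubules apart at kinetochores, with 2, 2 and 4 counts in WT and 12, 25 and 71 counts in GFAP-IL6 mice, or 0.105, 0.110 and 0.509 CPM against 1.26, 1.21 and 1.89 CPM. Its WT counts lay near 3 per mouse, and it passed the count filter only through the GFAP-IL6 mice, where it was high. Its groups did not overlap, where 13.8% of all genes tested did not. The log2 fold change of Kif2c was 2.95 (SE 0.59, edgeR adjusted p = 0.0128). The call was lost without WT mouse 1 (log2 fold change 2.55, adjusted p = 0.103), without WT mouse 2 (2.59, adjusted p = 0.115) and without GFAP-IL6 mouse 3 (2.65, adjusted p = 0.181).

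The series was made to vary the amount of cDNA in the tagmentation. A single member was called between the amounts, and its difference lay in the 2 ng set A libraries, as given below. Between 2 ng and 1 ng, with sets A and B summed per mouse, 1 of 19 tested members was called, Pcna, where 12.8% of all genes tested were called. Pcna was at 35.4, 31.2 and 26.6 CPM with 2 ng and 27.3, 23.5 and 21.4 CPM with 1 ng in WT mice 1 to 3, and at 33.4, 33.0 and 27.5 against 24.7, 23.4 and 21.1 CPM in GFAP-IL6 mice 1 to 3. It was higher with 2 ng in 6 of 6 mice, by 0.36 on the log2 scale (SE 0.09, edgeR adjusted p = 0.00862). With the mouse as a block, as the same RNA gave both amounts, 3 members were called, Pcna, Ccne1 (0.19, SE 0.08) and Rrm2 (0.53, SE 0.21), where 33.3% of all genes were.

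Between sets A and B, with the amounts summed, 1 of 22 tested members was called, again Pcna, where 7.47% of all genes tested were; with the mouse as a block it was also 1 and the share of all genes 23.3%. Pcna was at 38.7, 30.8 and 29.1 CPM in set A and 23.98, 23.2 and 18.5 CPM in set B in WT mice, and at 31.7, 34.7 and 28.5 against 25.4, 21.2 and 19.6 CPM in GFAP-IL6 mice. It was higher in set A in 6 of 6 mice, by 0.55 (SE 0.10, edgeR adjusted p = 0.00088). The difference between the amounts lay in the 2 ng set A libraries. The difference between the sets was smaller without these libraries, with Pcna 0.22 higher in set A (edgeR adjusted p = 0.376). In the 2 ng set A libraries Pcna was at 40.6 ± 5.15 CPM (SD, n = 6). The means of 6 were 25.3 ± 3.21 CPM for 1 ng in set A, and in set B 21.7 ± 2.22 CPM with 2 ng and 22.2 ± 3.13 CPM with 1 ng. The lowest of the 2 ng set A libraries, at 34.8 CPM, was above the highest of the other 18, at 30.6 CPM. By genotype the means within the 2 ng set A libraries were 41.1 CPM in WT and 40.1 CPM in GFAP-IL6 mice.

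**Figure D5:**
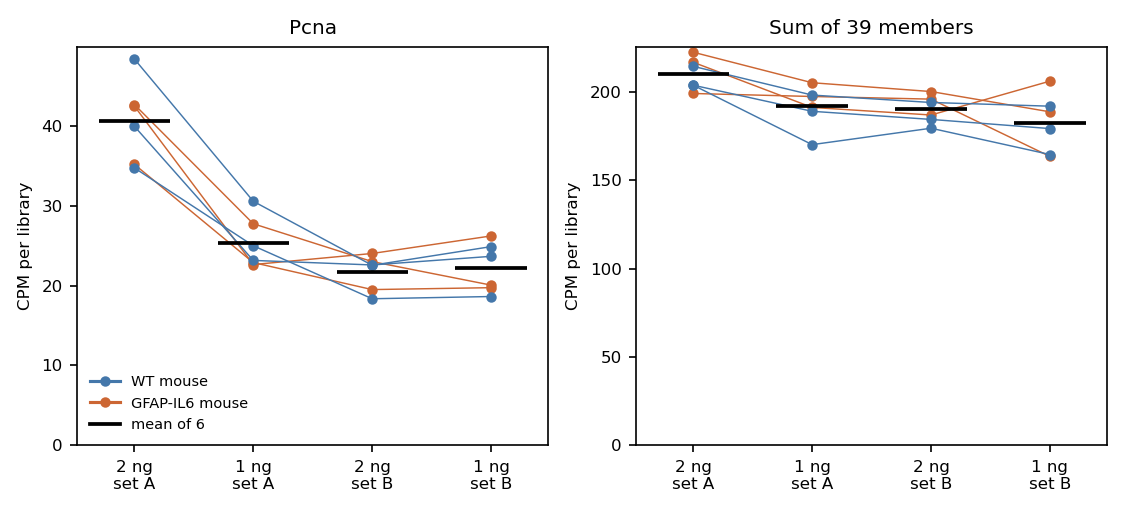
CPM per library of Pcna and of the sum of the 39 members in the 4 sets; lines join the libraries of a mouse (WT blue, GFAP-IL6 orange) and black bars are means of 6. Pcna is at 34.8 to 48.4 CPM in 2 ng set A and at 18.4 to 30.6 CPM in the other sets, while the sum stays between 164 and 223 CPM.

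The amounts were then compared within each set. Within set A, with the mouse as a block, 4 of 13 tested members were called, where 31.9% of all genes were: Pcna (0.63, SE 0.09), Rrm2 (0.86, SE 0.28) and Ccne1 (0.33, SE 0.11) were higher with 2 ng and Rrm1 (-0.45, SE 0.15) lower. Within set B edgeR called 0 of 13, with 0 at an unadjusted p under 0.05, where 21.4% of all genes were called; Pcna stood at -0.038 (SE 0.10). The difference of the amount effect between the sets was tested as an interaction, which called 1 of 16 members, Pcna, by 0.67 (SE 0.14, edgeR adjusted p = 0.000148), where 11.9% of all genes were called. For Rrm1, Ccne1 and Rrm2 the interaction had an edgeR adjusted p of 0.189, 0.277 and 0.356. These splits were chosen after the values were seen. Without the 6 libraries of 2 ng set A, edgeR called 0 of 14 members between the amounts, where 9.81% of all genes were called, and 0 of 14 between the sets, where 2.19% were; at an unadjusted p under 0.05 there were 0 members in both. Every mouse had both amounts in both sets, so amount and set are not confounded. Samples are pooled after reverse transcription in this method, and the labels do not say which libraries shared a pool. Where mice shared a reaction, the p-values for amount and set measure spread among mice and cannot measure spread between reactions. Whether a pooled reaction of the 2 ng set A libraries had a part was not tested.

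The sum of the module was 200.3 ± 7.27 CPM with 2 ng against 187 ± 12.5 CPM with 1 ng (SD, n = 6), and 200.2 ± 9.81 CPM in set A against 186 ± 11.3 CPM in set B, each higher in 6 of 6 mice. Pcna supplied more of both differences than the other 38 members together. Without Pcna the sums were 169 ± 8.76 and 163 ± 12.4 CPM by amount, higher with 2 ng in 5 of 6 mice, and 168 ± 11.3 and 164 ± 9.91 CPM by set, higher in set A in 4 of 6. Ccnd1, the highest member, was at 66.7 ± 7.52 CPM with 2 ng and 68.3 ± 7.26 CPM with 1 ng. A change of the genotype effect with the amount or the set was tested as an interaction: edgeR called 0 of 19 and 0 of 22 members, where 0% of all genes tested were called in either, so the count says nothing particular to the members. At an unadjusted p under 0.05 there were 0 members in both, beside 528 of 13389 genes (3.94%) and 582 of 13581 genes (4.29%).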

How the data were processed

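Per the labels and the methods of the study, the authors trimmed polyA from 3'Pool-seq reads, aligned them with STAR 2.4 to a mouse genome and counted reads on genes with featureCounts; the labels also list a human build. The deposited table holds the authors' counts of reads, a column for every library and not normalized. Genes were joined by Ensembl identifier and positions taken from GENCODE on the mouse build. The 4 libraries of each mouse were summed and genotypes compared with edgeR 4.0.16 (R 4.3.3; TMM, filterByExpr, quasi-likelihood test, Benjamini-Hochberg adjustment over all genes tested). Amount and set were compared on sums per mouse with genotype in the model. DESeq2 1.42.0 and limma 3.58.1 were alternatives. Scripts were tested on simulated data. Copies of members were sought with minimap2 (last 300 nt of a transcript, at least 97% identity over 100 nt). Members named with values in every mouse were the 12 highest by CPM, the 6 with the smallest p, Mki67, Top2a and Cdk1, and those called for amount or set. The members and lists were chosen with earlier results of these data known. Nothing says that mice shared a litter or day, and replicate numbers did not pair the genotypes (correlation of deviations -0.0495, -0.037 and -0.061 over 14621 genes); amounts and sets are paired by mouse. A further microglia marker is not reported here and is in no sum.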

Additional observations from a re-analysis of the deposited data

Results flagged for a closer look

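The effect of 2 ng against 1 ng of cDNA on Pcna differed between set A and set B by 0.67 on the log2 scale (SE 0.14, edgeR adjusted p = 0.000148; 0.68 and adjusted p = 0.0105 without the mouse as a block). In set A Pcna was higher with 2 ng in 6 of 6 mice, and in set B the difference was -0.038 (SE 0.10). The rule for a sample far from the others was applied to 16 groups of libraries and marked none of them.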

How the results depend on the processing

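For the genotype the number of members called was 0 under all 14 alternatives, the replicate block included (0 members, 215 genes); the lowest adjusted p of any was 0.320. With 4 of them 1 member, Prc1, and without WT mouse 3 Cdc6, reached an unadjusted p under 0.05. Over 16 named members 203 alternatives left the direction and call in 183 and turned the direction in 20, in 8 members, with the cause not tested. Ccne1 turned to -0.0011 with DESeq2 size factors and -0.065 with limma voom. Leaving out 1 mouse gave ranges of -0.10 to 0.15 for Ccne1, -0.20 to 0.32 for Mcm5, -0.29 to 0.051 for Mcm6, -0.077 to 0.41 for Mcm7, -0.14 to 0.023 for Pcna, -0.59 to 0.19 for Rrm2, -0.36 to 1.34 for Top2a and -0.43 to 0.014 for Tyms. Between 2 ng and 1 ng the members called were 3 with the replicate block (mouse), 4 in set A alone, 0 in set B alone and 0 without the 2 ng set A libraries (9.81% of all genes called), where Pcna turned to -0.14 (these splits were added after seeing the data); between set A and set B they were 0 without those libraries (2.19% of all genes), with Pcna at 0.22. Depth limits the members under 1 CPM, and p-values for genotype rest on 3 mice a group. Those for amount and set rest on spread among mice and do not measure spread between pooled reactions.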
